A study of Mus musculus with 6 samples.

Results

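The genes described here encode the sperm calcium channel CatSper (Catsper1, Catsper2, Catsper3, Catsper4, Catsperb, Catsperd, Catsperg1 and Catsperg2), the sperm potassium channel Kcnu1 and the proton channel Hvcn1, as transcripts of the mouse testis. They were chosen by name from the deposited table of gene levels. Of the 10 genes, 7 were matched by name among 44065 genes, namely Catsper2, Catsper3, Catsper4, Catsperb, Catsperd, Kcnu1 and Hvcn1. Catsper1, Catsperg1 and Catsperg2 were not matched by name and are described from rows whose protein description names them, which were picked after the names had been searched and stay out of every count of the 7. The libraries come from male C57BL/6 mice, 6 weeks old at the start of a 10-week exposure, in a sedentary group of 3 and a control group of 3, each animal giving 1 library of testis RNA depleted of ribosomal RNA. The sources used here do not say how the sedentary state was imposed or how the control mice were housed, and a group with compensating physical activity is named in the design and was not analysed here. The series title ties sedentary behaviour to DNA damage in sperm and to the temperature of the testis, and the comparison asks which testis transcripts differ between sedentary and control animals.

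CatSper is the calcium channel of the sperm tail. Its pore is built from the products of Catsper1 to Catsper4, and auxiliary subunits, among them those of Catsperb, Catsperd and the Catsperg genes, hold the complex together in rows along the flagellum. Calcium entry through it drives the hyperactivated tail beat that sperm need to reach and penetrate the egg, and male mice that lack a pore subunit are infertile. The channel opens at alkaline pH inside the cell, while Kcnu1 (Slo3) carries the potassium current that sets the membrane voltage of mouse sperm. In the mouse testis these genes are transcribed in meiotic and haploid germ cells, long before the protein works in sperm.

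Levels are fragments per kilobase of transcript, scaled to a total for each library (FPKM), so they can be compared between genes. Whole reads recovered from the table came to between 34176662 and 38148228 in the sedentary libraries, and to between 28495596 and 37654913 in the control libraries. In this bulk tissue, fewer cells of a type and less RNA per cell cannot be told apart. Of 14 marker genes of round spermatids, a cell type in which these channel genes are transcribed, all were matched and tested, and 7 lay above and 7 below 0 on the log2 scale, with a median difference of 0.00.

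Of the 7 genes matched by name, 6 reached at least 0.5 FPKM in at least 3 of the 6 libraries and entered the test across all genes, limma's moderated test on log2(FPKM + 0.5). In that test 0 of the 6 passed an adjusted p of 0.05, where 0.026% of 19201 genes did. Limma's voom, run on reads recovered from the table, called 0 of the 6, where it called 1.44% of the same genes (0.318% higher and 1.12% lower in sedentary testes). One gene, Catsperb, was lower in all sedentary libraries than in any control library, and the same gene alone had an unadjusted p under 0.05 by limma. Over all tested genes, 24.5% had groups that did not overlap, 10.8% with the sedentary group lower, and 17.4% had an unadjusted p under 0.05, 7.26% with the sedentary group lower. The 6 log2 differences had a median of -0.03, against 0.01 for all tested genes. Catsper2 was above 0 and the other 5 were below, and Catsper2 turned below 0 when each library was rescaled to TPM, a scale with the same sum in every library.

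The stretches of DNA before the transcription starts are shown here because these subunits join 1 channel and yet start from quite different sequence. RefSeq's promoter table (GRCm38.p6, from C57BL/6J, while the gene identifiers of the deposited table are of C57BL/6NJ) holds 5 of the 7 genes matched by name. The 250 bases before the start are given 5′ to 3′ on the strand of the gene, with CpG dinucleotides in capitals. Catsperd lies at chr17:56626797-56627046 (plus strand), Catsper3 at chr13:55784329-55784578 (plus), Catsper4 at chr4:134227384-134227633 (minus) and Catsperb at chr12:101404423-101404672 (plus).
Catsperd: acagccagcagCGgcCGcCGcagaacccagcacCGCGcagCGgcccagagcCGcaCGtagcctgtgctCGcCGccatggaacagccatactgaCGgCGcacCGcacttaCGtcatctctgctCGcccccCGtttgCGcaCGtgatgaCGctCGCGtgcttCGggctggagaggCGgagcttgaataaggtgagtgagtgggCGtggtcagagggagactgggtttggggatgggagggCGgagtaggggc
Catsper3: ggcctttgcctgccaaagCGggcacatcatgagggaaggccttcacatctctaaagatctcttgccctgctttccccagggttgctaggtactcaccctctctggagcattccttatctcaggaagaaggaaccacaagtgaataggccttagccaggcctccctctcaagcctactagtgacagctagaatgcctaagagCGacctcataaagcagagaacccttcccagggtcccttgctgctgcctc
Catsper4: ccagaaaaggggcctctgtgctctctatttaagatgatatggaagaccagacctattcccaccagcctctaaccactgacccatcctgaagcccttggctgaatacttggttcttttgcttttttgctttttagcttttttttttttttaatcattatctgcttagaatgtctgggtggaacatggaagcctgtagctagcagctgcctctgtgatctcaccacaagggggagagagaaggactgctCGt
Catsperb: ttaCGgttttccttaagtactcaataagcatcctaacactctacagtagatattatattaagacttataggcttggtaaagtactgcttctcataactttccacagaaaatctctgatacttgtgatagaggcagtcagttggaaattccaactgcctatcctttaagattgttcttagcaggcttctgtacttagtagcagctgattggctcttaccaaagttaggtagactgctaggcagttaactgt

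The Catsperd stretch holds 25 CpG dinucleotides, and 10.7% of 32851 promoters of the same length hold at least as many. A second RefSeq start of Catsperd, further along the gene, has 11 CpG before it, a count that 35.6% of promoters reach or exceed. Catsper3 has 2, Catsper4 has 1 and Catsperb has 1, counts that 81.2%, 92.1% and 92.1% of promoters reach or exceed. The stretch before Catsper2 (chr2:121413793-121414042, minus strand) holds 35, a count reached by 2.97% of promoters. In the GENCODE M21 annotation all 250 of those bases lie in the first exon of Pdia3, a disulfide isomerase of the endoplasmic reticulum that is read from the opposite strand, so their letters are not printed. In the Catsperd stretch 91 bases lie in the first exon of Lonp1, a mitochondrial protease, also on the opposite strand. In the deposited table the Catsperd model starts 1240 bases from that of Lonp1. The stretch before the second RefSeq start (chr17:56627893-56628142) lies further from Lonp1. The printed stretch reaches into Lonp1, so its start lies within 250 bases of that gene, whereas the deposited model starts 1240 bases away. If Lonp1 starts alike in both annotations, the printed stretch does not lie directly before the deposited start. Whether the deposited model matches the second RefSeq start was not tested. In the Catsper3 stretch 81 bases lie in an exon of the noncoding antisense gene 4930451E10Rik. The stretches before Catsper4 and Catsperb hold no exon of another gene in that annotation.

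The pore subunits were among the abundant transcripts. Catsper2 (MGP_C57BL6NJ_G0026811, chromosome 2 from 128356534 to 128384398 on the minus strand in the deposited table, whose genome build is not settled) encodes a pore subunit. It stood at 86.4, 89.4 and 83.2 FPKM in sedentary testes and at 84.9, 84.0 and 74.8 FPKM in control testes. The groups overlapped, and the lowest library was control replicate 3. Group means were 86.3 ± 3.11 FPKM in sedentary and 81.3 ± 5.58 FPKM in control testes (SD, n = 3 each). The log2 fold change was 0.09 with an SE of 0.08 and a 95% interval from -0.08 to 0.26 (limma adjusted p = 0.562). Between 8845 and 12490 reads lay behind each value, and in every library its level ranked between the 94.9th and the 95.5th percentile of tested genes.

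Catsper3 (MGP_C57BL6NJ_G0020995, chromosome 13 from 56952258 to 56978207, plus strand) encodes another pore subunit, which mouse sperm need for the CatSper current. Its level was 47.0, 37.5 and 39.7 FPKM in sedentary testes, against 44.2, 48.7 and 34.7 FPKM in control testes. The highest and the lowest library were both controls, so the control range held the whole sedentary range. Means were 41.4 ± 4.99 FPKM in sedentary and 42.5 ± 7.14 FPKM in control testes (SD, n = 3 each), with a log2 fold change of -0.03, an SE of 0.13 and an interval from -0.34 to 0.28 (limma adjusted p = 0.927). Between 1566 and 2358 reads lay behind each value.

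Catsper4 (MGP_C57BL6NJ_G0029340, chromosome 4 from 141481749 to 141497944, minus strand) encodes a further pore subunit that the current needs. It was measured at 58.1, 47.8 and 48.7 FPKM in sedentary testes and at 51.2, 57.2 and 48.9 FPKM in control testes. Sedentary replicate 1 and control replicate 2 stood above the other 4 libraries, and the groups overlapped. Means were 51.5 ± 5.67 FPKM in sedentary and 52.4 ± 4.28 FPKM in control testes (SD, n = 3 each), with a log2 fold change of -0.03, an SE of 0.10 and an interval from -0.25 to 0.20 (limma adjusted p = 0.908).

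A row with no symbol (MGP_C57BL6NJ_G0025111, chromosome 19 from 2346525 to 2354947, plus strand) carries the protein description of Catsper1, the first pore subunit described. It stood at 67.0, 50.5 and 55.1 FPKM in sedentary testes and at 55.5, 65.3 and 56.2 FPKM in control testes. Its 2 highest libraries were again sedentary replicate 1 and control replicate 2. Means were 57.5 ± 8.48 FPKM in sedentary and 59.0 ± 5.42 FPKM in control testes (SD, n = 3 each), with a log2 fold change of -0.04 and an interval from -0.30 to 0.22 (limma adjusted p = 0.871). The intervals of the 4 pore subunits thus reach at most 0.34 on the log2 scale below 0 and 0.28 above it.

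**Figure D1:**
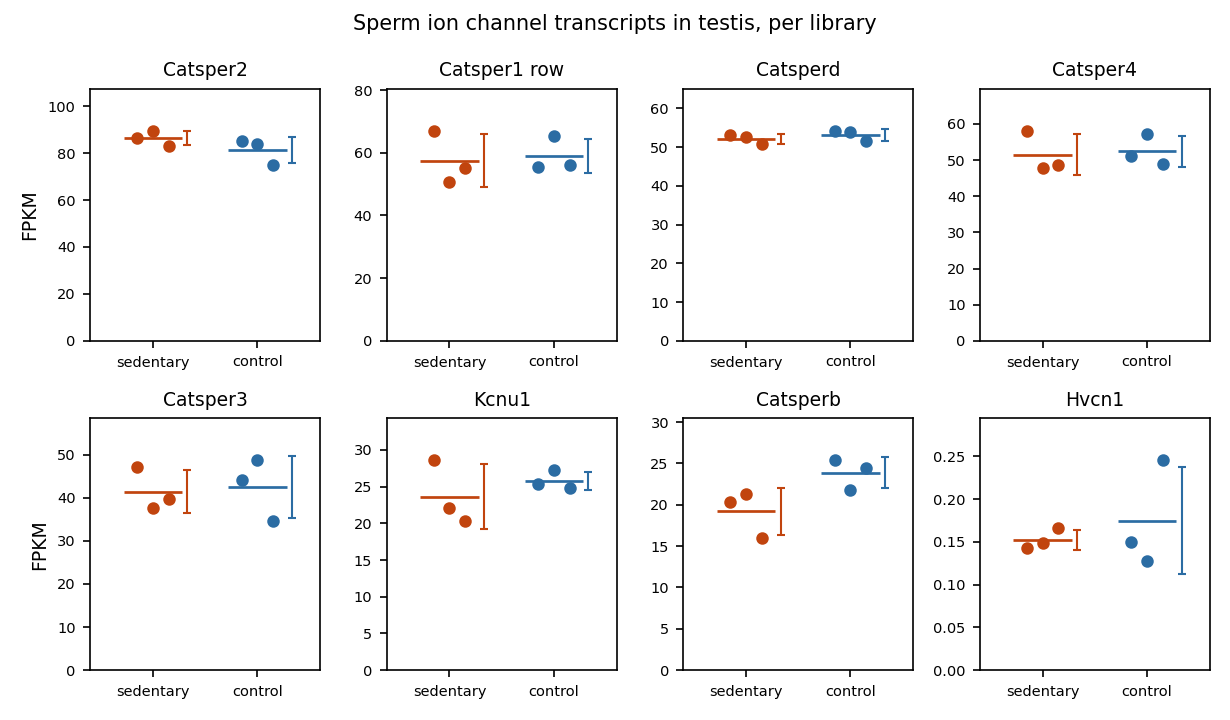
Level in FPKM (y axis, from 0, each panel with its own scale) in sedentary (left, orange) and control (right, blue) testes, 1 point per library in replicate order, with the mean as a line and 1 SD as a bar (n = 3 each). Catsperb is the 1 gene whose sedentary points, 20.3, 21.3 and 16.0 FPKM, all lie below its control points, and the Hvcn1 axis ends below 0.3 FPKM.

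Among the auxiliary subunits, Catsperb and Catsperd differed in how tightly their values lay. Catsperd (MGP_C57BL6NJ_G0024338, chromosome 17 from 60589517 to 60634589, plus strand) encodes the delta subunit, without which mouse sperm do not assemble the channel. It was at 53.2, 52.5 and 50.8 FPKM in sedentary testes and at 54.2, 53.8 and 51.5 FPKM in control testes. All 6 libraries lay within a coefficient of variation of 2.53%, the smallest of the 7 genes, and the groups overlapped. Means were 52.2 ± 1.26 FPKM in sedentary and 53.1 ± 1.47 FPKM in control testes (SD, n = 3 each), with a log2 fold change of -0.03, an SE of 0.06 and an interval from -0.17 to 0.12 (limma adjusted p = 0.863).

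Catsperb (MGP_C57BL6NJ_G0020414, chromosome 12 from 106152995 to 106437888, plus strand) encodes the beta subunit, a membrane protein with a large extracellular part. It stood at 20.3, 21.3 and 16.0 FPKM in sedentary testes, against 25.4, 21.8 and 24.4 FPKM in control testes. Every sedentary library lay below every control library, with sedentary replicate 3 lowest and a gap of under 1 FPKM between sedentary replicate 2 and control replicate 2. Means were 19.2 ± 2.81 FPKM in sedentary and 23.9 ± 1.88 FPKM in control testes (SD, n = 3 each). The log2 fold change was -0.31 with an SE of 0.12 and an interval from -0.58 to -0.05, which is a fold of 0.804 (0.669 to 0.968). The unadjusted p was 0.0262 and the adjusted p 0.240 by limma, and the adjusted p was 0.103 by voom on 1942 to 3564 reads per library, so the gene passed in neither. In every alternative tried it stayed below 0, with adjusted p between 0.0585 and 0.488 by limma or voom. Without sedentary replicate 3 the log2 fold change was -0.19.

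The Catsperb transcript is poor in G and C, at 37.2%, the lowest of the 6 tested genes. In this comparison the difference moved with base composition over the genes with a value, with a median log2 fold change of -0.16 for the 759 genes between 36 and 40% GC, -0.03 for 3122 genes between 44 and 48%, and 0.11 for 2868 genes between 52 and 56%. Only 77.0% of all tested genes had a GC value, so the trend does not speak for all of them. With each library's trend on GC content and length removed, the log2 fold change of Catsperb was -0.14 (limma adjusted p = 0.396 among those genes). The part of this trend in the Catsperb difference was not tested beyond that value. Kcnu1 at 46.0%, Catsper2 at 47.1%, Catsper3 and Catsperd at 48.6% and Catsper4 at 52.1% lay nearer the middle of the range. In this order, their log2 fold changes with the trends removed were -0.10, 0.11, -0.06, -0.04 and -0.10.

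**Figure D2:**
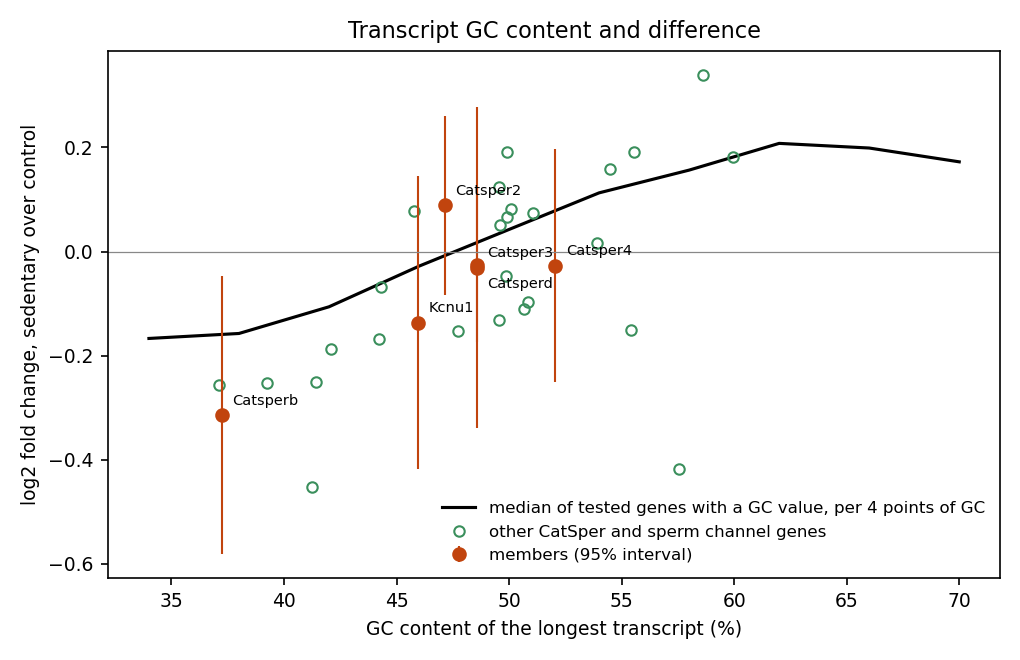
Log2 fold change of FPKM + 0.5, sedentary over control (y axis), against the GC content in percent of the longest GENCODE M21 transcript (x axis), for the 6 tested channel genes (filled, with 95% intervals), related genes (open) and the median of tested genes in steps of 4 points of GC (line). Catsperb, at 37.2% GC and -0.31, lies at the low end of the line, whose value there is -0.16.

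For the gamma subunits the table holds rows with no symbol, and their values are uncertain because Catsperg1 and Catsperg2 are closely similar copies that lie near each other on chromosome 7. The first Catsperg1 row below also shares 2980 bases with Psmd8, a gene on the same strand at 195 to 230 FPKM. The part of Psmd8 reads in that row was not tested. A row described as Catsperg1 (MGP_C57BL6NJ_G0032426, from 28978263 to 29019721, minus strand) stood at 6.11, 4.57 and 5.65 FPKM in sedentary testes and at 6.16, 6.14 and 6.06 FPKM in control testes. Sedentary replicate 2 was lowest, the groups overlapped, and the log2 fold change was -0.17 (limma adjusted p = 0.463). A second model of the same description overlaps it on the same strand by 41427 bases and is listed at 0 in all 6 libraries. An unannotated locus of that description (from 29555303 to 29576471, minus strand) was at 1.99, 1.97 and 1.57 FPKM in sedentary and 1.93, 1.64 and 2.66 FPKM in control testes, with overlapping groups and a log2 fold change of -0.12 (limma adjusted p = 0.723). A further one inside it is listed at 0 in all 6 libraries. Catsperg2 is named by the descriptions of 2 unannotated loci. The first (chromosome 7 from 29548969 to 29549717, plus strand) stood at 9.74, 9.11 and 8.51 FPKM in sedentary and 10.3, 10.1 and 6.50 FPKM in control testes. The second (from 29549609 to 29551637, minus strand) was at 0.709, 1.03 and 1.07 FPKM in sedentary and 1.49, 1.52 and 1.31 FPKM in control testes. That locus was lower in all sedentary libraries, with a log2 fold change of -0.44 on 180 reads in sedentary and 264 reads in control libraries, and did not pass (limma adjusted p = 0.218, voom adjusted p = 0.144).

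The potassium and proton channels stood far apart. Kcnu1 (MGP_C57BL6NJ_G0033983, chromosome 8 from 24890953 to 24993891, plus strand) was at 28.6, 22.0 and 20.3 FPKM in sedentary testes and at 25.3, 27.2 and 24.8 FPKM in control testes. Sedentary replicate 1 was the highest library and sedentary replicates 2 and 3 the lowest, so the control values lay inside the sedentary range. Means were 23.6 ± 4.39 FPKM in sedentary and 25.8 ± 1.28 FPKM in control testes (SD, n = 3 each), with a log2 fold change of -0.14, an SE of 0.12 and an interval from -0.42 to 0.14 (limma adjusted p = 0.583). Without sedentary replicate 1 the log2 fold change was -0.28 and without sedentary replicate 3 it was -0.036, with adjusted p of 0.334 and 0.912 by limma. These log2 fold changes were the extremes over the alternatives, where adjusted p lay between 0.235 and 0.912 by limma or voom. Lrrc52, the subunit that shifts the voltage at which Kcnu1 opens, stood at 29.0, 21.7 and 22.8 FPKM in sedentary testes and 24.8, 31.5 and 23.1 FPKM in control testes. Its log2 fold change was -0.11 (limma adjusted p = 0.715), and -0.17 with the GC and length trends removed.

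Hvcn1 (MGP_C57BL6NJ_G0030473, chromosome 5 from 130657572 to 130700577, plus strand) encodes a voltage-gated proton channel, which carries the proton current of human sperm and is also known from leukocytes. It was barely detected, at 0.143, 0.148 and 0.166 FPKM in sedentary testes and 0.150, 0.128 and 0.245 FPKM in control testes. These values rest on 17, 20 and 20 reads in the sedentary libraries and on 21, 13 and 29 reads in the control libraries. The 95% Poisson intervals of the extremes, 0.0682 to 0.219 FPKM in control replicate 2 and 0.164 to 0.352 FPKM in control replicate 3, overlap and cover counting error alone. The gene did not pass the filter on low values and was not tested. In each library its level was between 96.6-fold and 170.0-fold below that of Catsperb. The summed level of 13 matched leukocyte markers was 26.6, 29.0 and 40.8 FPKM in sedentary and 23.2, 16.0 and 41.8 FPKM in control testes, highest and lowest in the same libraries as Hvcn1, and their part in the Hvcn1 reads was not tested. Hvcn1 also shares 6153 bases with Tctn1, a gene of the primary cilium on the opposite strand, and the sources used here do not say whether the libraries keep strand.

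Over all 6 libraries the mean levels ran from Catsper2 at 83.8 FPKM through the Catsper1 row at 58.3, Catsperd at 52.7, Catsper4 at 52.0, Catsper3 at 42.0, Kcnu1 at 24.7 and Catsperb at 21.5 down to Hvcn1 at 0.163 FPKM. Catsper2 lay above the Catsper1 row in 6 of 6 libraries, by 1.29-fold to 1.77-fold, and their ranges did not overlap. Catsper3 and Kcnu1 also had ranges that did not overlap, with Catsper3 higher by 1.40-fold to 1.96-fold. The Catsper1 row was above Catsperd in 5 of 6 libraries and Catsperd above Catsper4 in 4 of 6, so the order among these genes does not hold beyond the spread between libraries. Catsper4 was above Catsper3 in 6 of 6 libraries, although their ranges overlapped. Kcnu1 was above Catsperb in 5 of 6.

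Several of the genes varied together from library to library, within the groups rather than between them. Sedentary replicate 1 and control replicate 2 were the 2 highest libraries for Catsper3, Catsper4 and Kcnu1, 3 of the 6 tested genes, and also for the Catsper1 row. The same held for 2 of 6 other CatSper genes, Efcab9 and Tmem262, and for 2 of 21 other channels, Lrrc52 and Atp1a4. Over all tested genes these 2 libraries were the highest in 7.06%, and over the 5708 genes of at least 10 FPKM in 11.8%. In the same libraries the summed level of the 14 round spermatid markers was also highest, at 1241, 1092 and 1093 FPKM in sedentary and 1088, 1181 and 1009 FPKM in control testes. Their part in the pattern was not tested, and the genes share the depth and composition of each library.

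In Catsperb, sedentary replicate 3 was its lowest library, 0.40 below the mean of the 6 on the log2 scale, and control replicates 1 and 3 were highest, at 0.25 and 0.19 above it. It was the lowest library for 3 of the 6 tested genes (Catsperb, Catsperd and Kcnu1), for 3 of 6 other CatSper genes (Efcab9, C2cd6 and Slco6c1), for 4 of 21 other channels (Slc9c1, Cftr, Atp2b4 and Clcn3) and for 23.0% of all tested genes. C2cd6, Slco6c1 and Slc9c1, the sperm sodium-proton exchanger, stood at -0.29, -0.39 and -0.38 there. Kcnu1 and Efcab9 show both patterns, high in sedentary replicate 1 and control replicate 2 and lowest in sedentary replicate 3. These groups of genes were put together after their values were seen, so no test is attached to them.

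**Figure D3:**
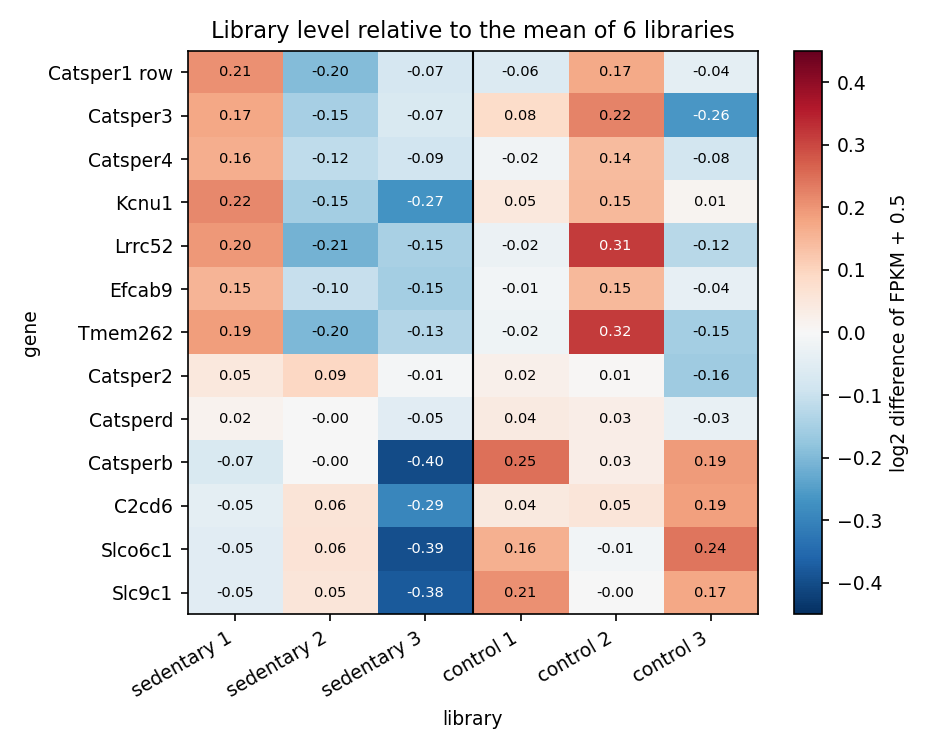
Level of each gene (rows) in each library (columns, sedentary left of the line and control right of it), as the log2 difference of FPKM + 0.5 from the mean of the 6 libraries, from blue (lower) to red (higher). Catsper3, Catsper4, Kcnu1 and the genes beside them are high in sedentary replicate 1 and control replicate 2, and the last 4 genes, Catsperb among them, are low in sedentary replicate 3; the genes shown were picked after their values were seen.

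Models that overlap a channel gene were examined because reads of overlapping models can be shared. A processed pseudogene of 247 bases on the same strand (MGP_C57BL6NJ_G0012114, chromosome 2 from 128365372 to 128365618) lies inside the bounds of Catsper2. It had 17, 16 and 13 reads in the sedentary libraries and 53, 40 and 38 reads in the control libraries. It fell in sedentary testes, with a log2 fold change of -1.34 (limma adjusted p = 0.0276), and was 1 of the 5 genes called in the whole table. Without any 1 of the 6 libraries the limma call was lost, with log2 fold changes between -1.43 and -1.27 and adjusted p of up to 0.154. Voom on the reads gave -1.54 (adjusted p = 0.0368), a call lost in the 4 fits that left out sedentary replicate 1 or 3 or control replicate 1 or 3 (highest adjusted p 0.165). Catsper2 around it was not lower, at 33556 reads in sedentary and 30322 reads in control libraries. Pdia3, which shares 534 bases with Catsper2 on the opposite strand, had a log2 fold change of 0.01 (limma adjusted p = 0.978). Psmd8, which shares 2980 bases with the Catsperg1 row on the same strand, was higher in all sedentary libraries. Its log2 fold change of 0.19 did not pass (limma adjusted p = 0.227). 4930451E10Rik, the antisense gene whose model starts 63 bases from that of Catsper3, was at 4.96, 4.50 and 3.28 FPKM in sedentary and 2.52, 3.39 and 2.98 FPKM in control testes. The groups overlapped, and its log2 fold change of 0.44 did not pass (limma adjusted p = 0.231).

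Among the remaining genes of the CatSper complex and its regulators, those matched by symbol also had 0 calls. Rows found by their protein description, given in the next paragraph, stay out of these counts. Of 9 listed, 6 were matched and tested, 0 passed by limma or by voom, 1 had an unadjusted p under 0.05 by limma, 1 lay above 0 and 5 below, with a median log2 fold change of -0.08. Of all tested genes, 17.4% had an unadjusted p under 0.05 by limma. Catsperz, which together with Efcab9 forms the calcium sensor of the complex, was the most abundant, at 415, 411 and 401 FPKM in sedentary testes and 377, 370.1 and 351 FPKM in control testes. All its sedentary libraries lay above all its control libraries, and the log2 fold change of 0.16 did not pass (limma adjusted p = 0.277). Efcab9 stood at 86.8 ± 10.2 FPKM in sedentary and 90.7 ± 6.39 FPKM in control testes (SD, n = 3 each). Slco6c1, a transporter subunit of the complex, was at 53.4, 57.9 and 42.0 FPKM in sedentary and 61.9, 54.9 and 65.5 FPKM in control testes, with a log2 fold change of -0.26 (limma adjusted p = 0.322) and of -0.09 after the GC and length trends were removed. C2cd6, which places the channel in the flagellum, had a log2 fold change of -0.19, and of -0.10 with those trends removed, and Abhd2, the progesterone-binding lipid hydrolase that relieves inhibition of the channel in human sperm, one of -0.05.

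A model annotated as an unprocessed pseudogene (MGP_C57BL6NJ_G0040498, chromosome 1 from 190007419 to 190206891) carries the protein description of Catspere, the epsilon subunit. It stood at 8.66, 10.5 and 9.15 FPKM in sedentary testes and at 13.5, 12.0 and 14.8 FPKM in control testes, and the groups did not overlap. The log2 fold change was -0.49 with an SE of 0.11, which did not pass on FPKM (limma adjusted p = 0.199). On the reads it fell, at -0.51 (voom adjusted p = 0.0329). That call was lost when sedentary replicate 1 or 3 or control replicate 1 or 3 was left out (highest adjusted p 0.151). An unannotated locus described as Tmem249, another subunit, was at 25.1, 20.2 and 26.7 FPKM in sedentary and 24.0, 28.6 and 19.9 FPKM in control testes (limma adjusted p = 0.991).

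Of 29 other channels, exchangers and pumps of sperm, all were matched and 21 were tested. By limma 0 passed, and 3 higher and 2 lower had an unadjusted p under 0.05, with 12 above 0 and 9 below and a median log2 fold change of 0.05. Of all tested genes, 10.1% were higher and 7.26% lower at that p. By voom on the reads 2 fell, where 1.12% of all tested genes did. Cftr, a chloride and bicarbonate channel, stood at 2.33, 2.14 and 1.86 FPKM in sedentary testes and 3.14, 2.65 and 3.44 FPKM in control testes, with a voom log2 fold change of -0.55 (adjusted p = 0.0353). Itpr3, a calcium release channel of internal stores, was at 1.74, 1.98 and 2.30 FPKM in sedentary and 2.83, 2.97 and 2.73 FPKM in control testes, with a voom log2 fold change of -0.51 (adjusted p = 0.0372). On FPKM, limma gave both an adjusted p of 0.207, with log2 fold changes of -0.45 for Cftr and -0.42 for Itpr3. With the GC and length trends removed these were -0.30 and -0.48 (limma adjusted p = 0.238 and 0.226). Both lost the voom call when sedentary replicate 1 or 3 or control replicate 1 or 3 was left out (highest adjusted p 0.174 for Cftr and 0.138 for Itpr3). Orai1, a plasma membrane calcium channel, was higher in all sedentary libraries, at 12.5, 10.9 and 13.9 FPKM, than in the control libraries, at 9.45, 9.57 and 9.98 FPKM, and did not pass (limma adjusted p = 0.207). Its log2 fold change was 0.34, and 0.19 with the GC and length trends removed. Slc26a8 was also higher in all sedentary libraries and did not pass (limma adjusted p = 0.220). Its log2 fold change was 0.19, and 0.17 with those trends removed. Slc9c1 was at 38.3, 41.3 and 30.5 FPKM in sedentary and 46.0, 39.7 and 44.9 FPKM in control testes, with a log2 fold change of -0.25 (limma adjusted p = 0.309) and of -0.10 with the GC and length trends removed. Atp1a4, the sodium pump subunit of sperm, stood at 241.8 ± 15.8 FPKM in sedentary and 228.4 ± 13.8 FPKM in control testes (SD, n = 3 each), and Trpc2 is listed at 0 in all libraries.

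**Figure D4:**
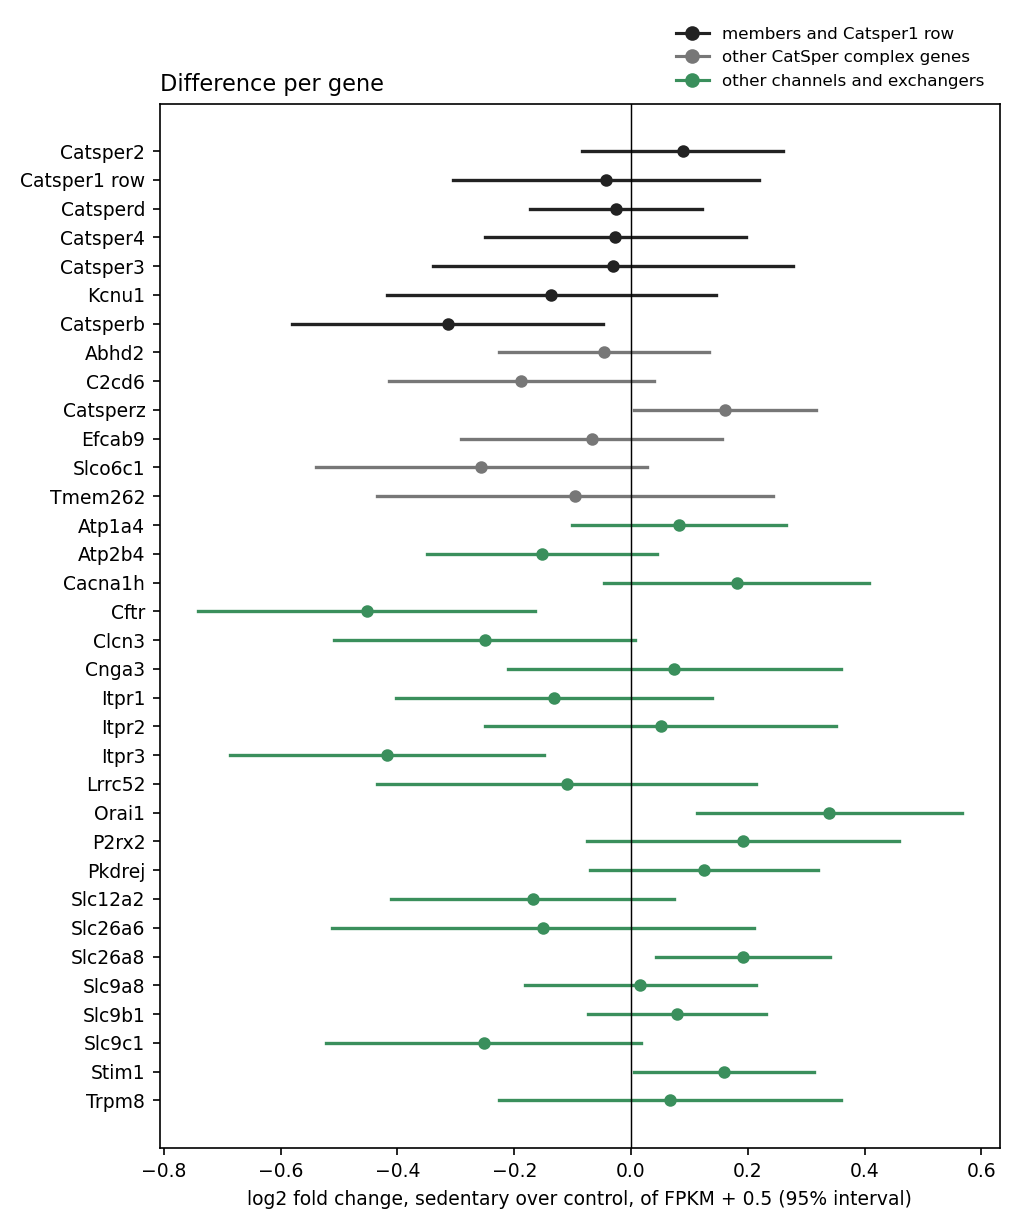
Log2 fold change of FPKM + 0.5, sedentary over control, with its 95% interval (x axis) for the 6 tested channel genes and the Catsper1 row (black), other CatSper complex genes (grey) and the 21 other tested channels (green). Of the black intervals that of Catsperb, from -0.58 to -0.05, is the 1 that does not cross 0, and 0 genes shown pass limma's adjusted p of 0.05.

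Of 24 genes for cyclic AMP, kinase and calcium signalling in the flagellum, the pathway by which bicarbonate readies sperm for hyperactivation, all were tested and 0 passed by limma or voom, while 5 had an unadjusted p under 0.05 by limma, all of them higher, where 10.1% of all tested genes did so, with 17 above 0 and 7 below and a median log2 fold change of 0.05. Elongating spermatid markers lay higher, 15 of 15 tested with a median of 0.25, and spermatocyte markers lower in 10 of 13, with a median of -0.17. With each library's GC and length trend removed these medians were 0.15 and -0.09. Of the elongating spermatid markers 0 passed by limma on FPKM, 9 had an unadjusted p under 0.05 and 2 were called by voom. Of the spermatocyte markers 0 passed by limma, 5 had an unadjusted p under 0.05, 2 higher and 3 lower, and 1 was called by voom. Among somatic cells, Sertoli markers were above 0 in 14 of 15 (median 0.25), Leydig markers below 0 in 10 of 11 (-0.34), peritubular and smooth muscle markers in 7 of 8 (-0.32) and fibroblast markers in 8 of 8 (-0.40). Control replicate 3 stood highest for Leydig and fibroblast markers. From the mean of the 6 libraries, Leydig markers averaged -0.23, -0.16 and -0.08 on the log2 scale in sedentary replicates 1 to 3. In control replicates 1 to 3 they averaged 0.003, -0.05 and 0.52. Fibroblast markers averaged -0.21, -0.22 and -0.04 in the sedentary and 0.04, 0.02 and 0.41 in the control replicates. By voom, 2 Sertoli markers were called higher, and 1 Leydig and 2 fibroblast markers lower. Of all tested genes, voom called 0.318% higher and 1.12% lower. By limma 10.1% were higher and 7.26% lower at an unadjusted p under 0.05. The part of these marker shifts in the channel values was not tested.

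Genes outside the lists whose level followed the CatSper subunits most closely over the 6 libraries were found by Pearson's r with the mean of the 5 CatSper genes matched by name, among 11125 named protein-coding genes. They were Wwox (0.996), Tbcel (0.994), Tgif2lx2 (0.986), Mfsd13b (0.986) and Dpy30 (0.983). The mean of the 5 was 0.07, -0.03 and -0.12 from its overall level on the log2 scale in sedentary replicates 1, 2 and 3, and 0.08, 0.09 and -0.07 in control replicates 1, 2 and 3. Both groups thus held libraries above and below the overall level. These r values describe 6 libraries that share their scaling and were the highest of many.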

How the data were processed

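RNA was measured in 6 testis libraries, 3 sedentary and 3 control, which the labels call biological replicates. The authors deposited 1 table of FPKM values with gene names, protein descriptions, lengths and coordinates for 44065 genes. Per the submitters' processing notes, HISAT2, StringTie and DESeq2 were used, and mm10 and mm39 are the builds named. The sources used here give no version or role for them. Gene identifiers are of C57BL/6NJ and the table's build is not settled, so coordinates stand as deposited.

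FPKM times gene length gave whole reads for 100.0% of values in every library, within a tolerance of 0.001. Between 56.2 and 59.0% of low counts were even, so reads are not independent molecules, and counting intervals cover counting error alone. Replicates of a group differed beyond sampling noise in every pair (chi-square per degree of freedom 7.97 to 19.4).

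Sedentary and control libraries were compared with limma's two-sided moderated test (limma 3.58.1 in R 4.3.3, with a variance prior following the level) on log2(FPKM + 0.5), a scale that understates differences of low genes. The 19201 genes that reached 0.5 FPKM in 3 or more libraries entered, with Benjamini-Hochberg adjustment over all of them and a threshold of 0.05. The alternatives were limma's voom on these reads, scaled by the totals that the deposited FPKM imply, other pseudocounts, filters, scalings and weights, a replicate block, and leaving out each library. GC content came from the longest GENCODE M21 transcript of each symbol. Both tests were checked on simulated counts. These had the same spread setting for every gene and no trend on GC content, so the check does not cover those features of the data.

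All 10 genes of the group were to be named with every library's value, along with any gene of the lists on other CatSper genes and sperm channels, genes overlapping or adjoining them, and the 5 genes of the most similar pattern among named protein-coding genes of at least 1 FPKM. That pattern was taken over the 5 CatSper genes matched by name. Members and lists were chosen with earlier results of these data known.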

Additional observations from a re-analysis of the deposited data

How the results depend on the processing

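The 6 tested channel genes had 0 calls in every alternative run. Their median log2 fold change, -0.03, moved to -0.14 when values were rescaled to TPM, where that of all genes was -0.09 (0.01 on FPKM). With quantile normalization their median was -0.12, where that of all genes was 0.01. With the GC and length trends removed it was -0.08, where that of all genes was 0.02. By voom it was -0.03 (all genes 0.01), and with summed reads as totals -0.11 (all genes -0.06). The median of the channel genes lay between -0.12 and 0.01 when each library was left out. Catsperb, Catsperd and Kcnu1 kept their direction in all 19 alternatives. Catsper2 turned to -0.026 with TPM, and Catsper4 to 0.023 with array weights. By voom Catsper2 was at 0.09, and at 0.01 with summed reads as totals. Left-out libraries gave Catsper3 values from -0.17 to 0.073 and Catsper4 values from -0.11 to 0.037. Catsper3 turned to 0.036, 0.0038 and 0.073 without sedentary replicate 2, control replicate 1 and control replicate 2. Catsper4 turned to 0.024, 0.010 and 0.037 without sedentary replicate 2, sedentary replicate 3 and control replicate 2. The cause was not tested.

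Over all genes, the 5 calls became 1 without a filter, 3 at a minimum of 1 FPKM, 16 with array weights, 277 by voom (61 higher, 216 lower) and 429 by voom with summed reads as totals (21 higher, 408 lower), a setting chosen after seeing the data. With the GC and length trends removed, over fewer genes, 0 were called, and with each library left out, 0 to 2. With the replicate number as a replicate block, 0 genes were called, and 0 with the block and the trends removed. Same-numbered libraries did not deviate together (correlations -0.07, -0.09 and -0.03), and no library correlated best with that of its own number. With 3 libraries in each group, these values cannot decide whether the numbers pair the animals. The planned quasi-likelihood count tests were not run, because the deposited unit is FPKM. Depth limits Hvcn1, with 13 to 29 reads per library, while the other 6 genes had at least 1566 reads in each library.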
